A study of Mus musculus with 8 samples.

Results

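Connexins and pannexins were followed across the cell types of the mouse iris through 10 genes chosen by name, 8 connexin genes (*Gja1*, *Gja4*, *Gja5*, *Gjb2*, *Gjb6*, *Gjc1*, *Gjc3* and *Gjd2*) and 2 pannexin genes (*Panx1* and *Panx2*). Of these, 9 were among the 22873 genes of the count tables, and *Gjd2* was not analysed here. The counts came from single nuclei of irises of female albino WT mice aged 6 to 8 weeks, in 3 untreated, 3 constricted and 2 dilated libraries, each a pool of 5 or 6 irises. For dilation, phenylephrine (5%) with cyclopentolate (1%) was dropped on each eye hourly for 6 hours in the dark, and for constriction pilocarpine (5%) in the light, and the part of the drug cannot be told apart from that of the lighting. Eyes were taken 30 minutes after the last dose. The libraries held 34357 nuclei in 10 cell types assigned by the authors, namely dilator muscle, sphincter 1 and sphincter 2, iris pigment epithelium (PE), ciliary body epithelium (CBE), non-epithelial ciliary body (CB), stroma 1, stroma 2, leukocytes and endothelial cells. The ciliary body entered to a varying extent with the cut around the iris.

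Connexins are membrane proteins that pass the bilayer several times and assemble into hexameric hemichannels, and a hemichannel of one cell can dock with that of its neighbour to form a gap junction channel for ions and small molecules. Gap junctions couple smooth muscle cells, epithelial cells and vascular endothelium, and in the ciliary body they join the pigmented and the nonpigmented epithelium, which together secrete aqueous humor. Pannexins resemble connexins in fold, do not form gap junctions in most settings, and act as large pores in the plasma membrane through which ATP leaves the cell.

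The libraries held 5189437 to 25136427 unique molecular identifiers (UMIs, each counted as 1 transcript molecule), with a median per nucleus of 2775 to 4697.5. Levels are given as UMIs of a gene per 1000000 UMIs of the same cell type and library (CPM), with the mean ± SD of a condition's libraries, and they compare a gene with itself across cell types. Where different genes are compared, the CPM was divided by the length of the gene in kb, as nuclear counts include introns. Length was taken from the first to the last annotated base. Whether counts rise in proportion to it was not tested. Of the marker lists held against the labels, none had a gene at 0 in its own cell type in untreated irises, and the stroma 1 markers *Sox10*, *Tbx1*, *Pax3*, *Mitf* and *Dct* summed to 24890 to 26674 CPM in stroma 1. Some lists did not set their cell type apart, among them the iris PE markers, whose sums in CB overlapped with those in iris PE. The dilator markers *Adra1a*, *Nos1*, *Myh11* and *Acta2* summed to 3177 to 3360 CPM in dilator muscle, 3860 to 4844 CPM in sphincter 1 and 4135 to 4586 CPM in sphincter 2. The sphincter 2 markers (*Chrm3*, *Syt1*, *Adra1a*, *Myh11*) summed to 5112 to 6178 CPM in sphincter 2 and 10977 to 12139 CPM in sphincter 1, and the CBE markers (*Zic1*, *Pax6*) to 1666 to 2121 CPM in CBE and 2326 to 2576 CPM in iris PE. Cell barcodes were shared between libraries in places. Untreated replicate 1 and dilated replicate 1 shared 63 barcodes, and 74 of the 1479 nuclei of untreated replicate 1 carried a barcode that another library also held. Results between conditions are therefore given with and without those nuclei.

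The promoters of the members that carried the differences described below are printed here so that they can be read beside the levels. RefSeq (GRCm38.p6) gave a window from 250 bases before to 50 bases after the start site for 8 of the 10 members, and none was given for *Gjc1* and *Panx2*. Capitals mark matches, on either strand, to AP-1 (TGANTCA), the short core of the cAMP response element, CRE (TGACG), EGR (GCGNGGGCG), the MITF E-boxes (CACGTG and CATGTG) or SOX (ACAANG). The *Gja1* window lies at chr10:56377050-56377349 on the + strand, that of *Gjb2* at chr14:57104653-57104952, that of *Gjb6* at chr14:57133562-57133861 and that of *Gjc3* at chr5:137963049-137963348, the last 3 on the - strand.
Gja1: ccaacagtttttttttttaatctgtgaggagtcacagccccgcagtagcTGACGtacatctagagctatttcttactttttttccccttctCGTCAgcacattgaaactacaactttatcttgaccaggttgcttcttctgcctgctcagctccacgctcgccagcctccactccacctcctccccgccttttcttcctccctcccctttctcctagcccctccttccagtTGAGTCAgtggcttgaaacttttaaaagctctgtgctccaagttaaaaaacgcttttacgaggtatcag
Gjb2: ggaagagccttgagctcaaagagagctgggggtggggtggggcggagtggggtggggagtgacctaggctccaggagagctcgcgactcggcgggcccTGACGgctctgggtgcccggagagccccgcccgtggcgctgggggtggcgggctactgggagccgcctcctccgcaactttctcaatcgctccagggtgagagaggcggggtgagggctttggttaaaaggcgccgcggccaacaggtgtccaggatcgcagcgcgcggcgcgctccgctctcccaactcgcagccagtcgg
Gjb6: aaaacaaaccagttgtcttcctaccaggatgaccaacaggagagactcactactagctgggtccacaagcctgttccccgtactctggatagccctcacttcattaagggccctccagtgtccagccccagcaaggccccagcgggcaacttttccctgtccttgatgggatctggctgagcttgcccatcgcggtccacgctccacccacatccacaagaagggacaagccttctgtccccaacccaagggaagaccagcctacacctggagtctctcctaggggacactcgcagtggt
Gjc3: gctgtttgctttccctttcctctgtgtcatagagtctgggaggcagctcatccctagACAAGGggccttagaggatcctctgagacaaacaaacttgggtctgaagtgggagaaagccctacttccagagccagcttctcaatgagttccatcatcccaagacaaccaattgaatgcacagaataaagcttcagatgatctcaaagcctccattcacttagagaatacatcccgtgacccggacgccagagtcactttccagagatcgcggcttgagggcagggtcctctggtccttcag

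The *Gja1* window held 1 AP-1 match, TGAGTCA at position -19 from the start site, and 2 CRE cores at -201 and -159. An AP-1 match was present in 7.81% of 32851 RefSeq promoter windows of the same length, and a CRE core in 20.8%. EGR letters, found in 5.55% of windows, were not in the *Gja1* window. The windows of *Gjb2* and *Gjb6* held neither E-box nor SOX letters (CACGTG in 7.15%, CATGTG in 14.2% and ACAANG in 41.2% of windows), *Gjb2* held 1 CRE core at -152, and *Gjc3* held 1 SOX match at -193. These matches describe letters only.

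*Gja1* (ENSMUSG00000050953, Cx43; chromosome 10, 56377330 to 56402513, + strand, mm10) encodes the connexin of heart muscle, smooth muscle and many epithelia. It accounted for 93791 UMIs over the 8 libraries, against 2465 for *Gjc1*, 947 for *Gjb6*, 755 for *Gjb2*, 504 for *Panx1*, 244 for *Gja5*, 195 for *Gjc3*, 177 for *Panx2* and 74 for *Gja4*. In untreated irises it made up 98.7% of the UMIs of the 9 members in iris PE, 96.6% in dilator muscle, 91.2% in stroma 2 and 75.8% in endothelial cells, but 13.04% in stroma 1. *Gja1* was thus the most counted member in 9 of the cell types, and stroma 1 stood apart from them.

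The highest untreated *Gja1* level was in iris PE, at 1448 ± 174 CPM (SD, n = 3), followed by CBE at 1440 ± 97.5 CPM and CB at 1392 ± 40.8 CPM. The ranges of these 3 cell types overlapped, and CB was the highest when untreated replicate 1 was left out. Dilator muscle followed at 934 ± 139 CPM, below all CB libraries. Sphincter 2 had 690.2 ± 131 CPM, sphincter 1 547 ± 34.7 CPM, stroma 2 529.7 ± 84.3 CPM and endothelial cells 521 ± 71.9 CPM, and each of these overlapped with its neighbour in the order. Leukocytes were lower, at 252 ± 111 CPM, and stroma 1 was lowest at 40.3 ± 2.42 CPM, with libraries at 37.7, 42.5 and 40.7 CPM. The mean in iris PE was 35.97-fold that in stroma 1, and the mean in dilator muscle 23.2-fold. No test was made between cell types, because the cell types were defined from the same counts.

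Of untreated nuclei, 93.0% in iris PE, 86.1% in dilator muscle and 10.4% in stroma 1 held a *Gja1* UMI. When each nucleus was thinned to 1000 UMIs, the shares were 72.8% in CB, 71.5% in CBE, 70.4% in iris PE, 54.6% in dilator muscle, 42.2% in sphincter 2, 36.7% in sphincter 1, 32.1% in stroma 2, 29.6% in endothelial cells, 7.87% in leukocytes and 4.53% in stroma 1. Free RNA in droplets gives UMIs to nuclei that do not express a gene. The other shares are therefore read against the lowest, that in stroma 1 (median 2691 UMIs per nucleus, against 3410 in dilator muscle). For endothelial cells and leukocytes this floor may be too low. The 3 iris PE markers summed to 330 to 481 CPM in endothelial cells, 92.8 to 463.5 CPM in leukocytes and 72.1 to 149 CPM in stroma 1. Nuclei called doublets by Scrublet made up 7.33%, 7.49% and 0.13% of these types over all conditions. The part of RNA from other cells in their *Gja1* values was not tested. The share followed the order of the levels by CPM except among the top 3, where CB and CBE exceeded iris PE.

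**Figure D1:**
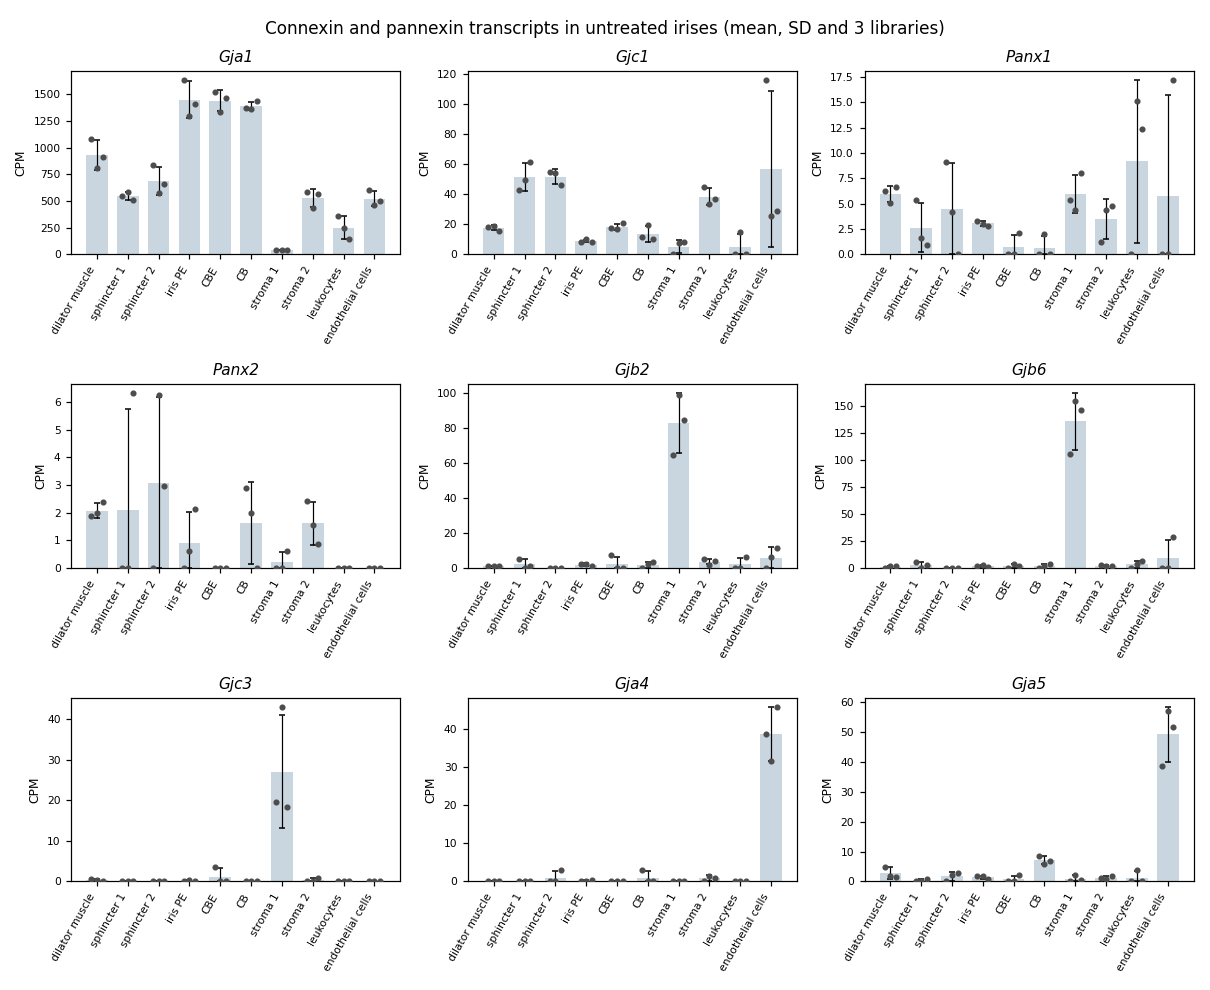
Levels of the 9 measured connexin and pannexin genes in CPM (y axes, each starting at 0, scaled per gene) in the 10 cell types of untreated irises (x axes); bars are means, error bars SD and points the 3 libraries. *Gja1* was lowest in stroma 1, where *Gjb2*, *Gjb6* and *Gjc3* were highest, and *Gja4* and *Gja5* were highest in endothelial cells.

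Stroma 1 carried a different set. *Gjb6* (ENSMUSG00000040055, Cx30; chromosome 14, 57123303 to 57133611, - strand) and *Gjb2* (ENSMUSG00000046352, Cx26; chromosome 14, 57098600 to 57104702, - strand) encode the connexins that are joined in gap junctions of the cochlea and of astrocytes and leptomeninges, and the genes lie 18.6 kb apart. *Gjb6* was at 106, 155 and 147 CPM in the 3 untreated libraries of stroma 1, a mean of 136 ± 26.4 CPM from 509 UMIs. The next level was 9.59 ± 16.6 CPM in endothelial cells, 14.2-fold lower, from 5 UMIs of 1 library. The mean in stroma 2 was 1.99 ± 0.427 CPM, 68.4-fold lower, and in iris PE 1.77 ± 0.578 CPM, 76.9-fold lower. *Gjb2* was at 64.6, 98.8 and 84.4 CPM in stroma 1, a mean of 82.6 ± 17.2 CPM from 308 UMIs, against 5.94 ± 5.76 CPM in endothelial cells, from 3 UMIs, and 3.56 ± 1.52 CPM in stroma 2, 23.2-fold lower. Stroma 1 held 87.3% of all untreated *Gjb6* UMIs and 81.5% of all untreated *Gjb2* UMIs. Sphincter 2 had 0 UMIs of either gene in untreated irises, which allows up to 2.37 CPM. These limits, like all limits here, cover counting error only.

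*Gjc3* (ENSMUSG00000056966, Cx29; chromosome 5, 137953461 to 137963098, - strand), the connexin of myelinating glia, was at 19.7, 43.2 and 18.5 CPM in untreated stroma 1, a mean of 27.1 ± 13.9 CPM from 100 UMIs. That was 90.1% of its 111 untreated UMIs, and 5 cell types had 0, namely CB (up to 2.61 CPM allowed), both sphincters (up to 1.56 and 2.37 CPM), leukocytes (up to 6.58 CPM) and endothelial cells (up to 7.82 CPM). *Dct*, a melanocyte-lineage enzyme, was present in all 58 stroma 1 nuclei in which *Gjc3* was found after thinning to 1000 UMIs.

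Per kb, *Gjb2* (13.5 CPM per kb) and *Gjb6* (13.2 CPM per kb) were alike in stroma 1, though not undivided (82.6 and 136 CPM). *Gjc3* had 2.82 CPM per kb there and *Gja1* 1.60 CPM per kb. In iris PE, *Gja1* had 57.5 CPM per kb. After thinning, 13.98% of untreated stroma 1 nuclei held a *Gjb6* UMI (32.2% unthinned), 8.67% a *Gjb2* UMI (19.5% unthinned) and 2.34% a *Gjc3* UMI (6.58% unthinned). The thinned share of *Gjb2* in stroma 2 was 0.205%. Over all conditions, *Gjb2* was found in 28 of 279 thinned stroma 1 nuclei with *Gjb6* (10.0%) and in 183 of 2019 without it (9.06%), so that at this depth the share with *Gjb2* differed little between nuclei with and without *Gjb6*.

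*Gja4* (ENSMUSG00000050234, Cx37; chromosome 4, 127311421 to 127314039, - strand) and *Gja5* (ENSMUSG00000057123, Cx40; chromosome 3, 96904693 to 97077416, + strand) encode the connexins of arterial endothelium. In endothelial cells of untreated irises *Gja4* was at 38.8, 31.6 and 46.0 CPM, a mean of 38.8 ± 7.18 CPM from 15 UMIs. Its next level was 0.988 CPM in sphincter 2, from 2 UMIs. *Gja5* was at 38.8, 57.0 and 51.8 CPM in endothelial cells, a mean of 49.2 ± 9.36 CPM from 20 UMIs, against 7.12 ± 1.40 CPM in CB, 6.91-fold lower, and 2.75 ± 1.94 CPM in dilator muscle. Both endothelial means thus rest on few UMIs, and the libraries of endothelial cells did not overlap with those of the next cell type. The annotated span of *Gja5* overlaps other genes, among them *Gpr89*, so its reads cannot be fully told apart from theirs. In endothelial cells, *Gja4* had 14.8 and *Gja1* 20.7 CPM per kb. No other member came as close to *Gja1* per kb in a muscle or an epithelium. Undivided, *Gja4* and *Gja1* had 38.8 and 521 CPM there, from 15 and 191 UMIs.

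*Gjc1* (ENSMUSG00000034520, Cx45; chromosome 11, 102799579 to 102819700, - strand) encodes a connexin of smooth muscle and the cardiac conduction system. It was at 51.7 ± 4.97 CPM in untreated sphincter 2 and at 51.3 ± 9.33 CPM in sphincter 1, against 17.7 ± 1.70 CPM in dilator muscle, where the libraries had 18.1, 19.1 and 15.8 CPM. The sphincters were 2.92-fold and 2.90-fold above dilator muscle without overlap, the reverse of the order of the *Gja1* means. Stroma 2 had 38.4 ± 5.65 CPM, CBE 18.5 ± 2.00 CPM, CB 13.8 ± 5.22 CPM, iris PE 8.94 ± 0.871 CPM, stroma 1 5.11 ± 4.44 CPM and leukocytes 5.05 ± 8.75 CPM. Endothelial cells had the highest mean, 56.8 ± 51.6 CPM from 15 UMIs, but this came from untreated replicate 1 at 116 CPM, and without that library the mean was 27.0 CPM.

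The pannexins were low in all cell types. *Panx1* (ENSMUSG00000031934; chromosome 9, 15002128 to 15045478, - strand) had means from 0.660 CPM in CB to 9.18 ± 8.07 CPM in leukocytes, the latter from 6 UMIs. In dilator muscle it was at 5.98 ± 0.818 CPM from 88 UMIs and in stroma 1 at 5.93 ± 1.87 CPM from 22 UMIs. *Panx2* (ENSMUSG00000058441; chromosome 15, 89059734 to 89073567, + strand) was at 2.07 ± 0.266 CPM in dilator muscle from 32 UMIs, and its highest mean, 3.07 ± 3.12 CPM in sphincter 2, rested on 5 UMIs. 1810021B22Rik overlaps *Panx2*, and reads from both cannot be told apart unless strand was used. No order between neighbouring cell types held beyond the spread for either gene.

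Among 13 other connexin and pannexin genes, 3 were measured. *Gja3*, a lens connexin, had its highest mean in stroma 1 (8.87 ± 3.21 CPM, 35 UMIs), and *Gjb1* had 1 UMI in untreated irises. None of the 3 had enough UMIs to be tested between conditions.

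The genes whose levels were most like those of a member were taken from 11656 genes over the 30 untreated sums of 10 cell types and 3 libraries, by Pearson's r of log2(CPM + 1). Sums of a library share their depth, and those of a cell type their nuclei, so r is a description. *Gja1* was matched most closely by *Gli2* (0.950), *Pdgfrl* (0.939) and *Tgfb2* (0.938). *Gjb2* was matched by *Slc24a4* (0.912), *Pgr* (0.865) and *Gm12688* (0.851). The closest to *Gjb6* were *Alx1* (0.907), *G630064G18Rik* (0.903) and *Gdnf* (0.893), and to *Gjc3* *Gm10217* (0.945), *Gm16267* (0.937) and *Gm829* (0.936), each with its highest level in stroma 1. *Gja4* was closest to *Sox7* (0.955), *Edn1* (0.950) and *4930578C19Rik* (0.944), and *Gja5* to *Mannr* (0.879), *Adgrl4* (0.865) and *Adh1* (0.850), all highest in endothelial cells. *Gjc1* was matched by *Gm15910* (0.838), *Ccdc85b* (0.832) and *Sema3c* (0.811), all highest in a sphincter.

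The first comparison between conditions asked which members changed as pupils were dilated. The UMI sums of all 8 libraries were fitted per cell type and tested by quasi-likelihood with edgeR, and a change was called at a log2 fold change above 0.6 or below -0.6 with a Benjamini-Hochberg adjusted p under 0.05. Of 90 pairs of a member and a cell type, 21 had enough UMIs to be tested, 10 for *Gja1*, 5 for *Gjc1*, 1 each for *Gja5*, *Gjb2*, *Gjb6*, *Gjc3*, *Panx1* and *Panx2*, and 0 for *Gja4*. Of these, 2 were called, both in dilator muscle, where *Gja1* fell and *Gjc1* rose, and 7 had an unadjusted p under 0.05. Over all genes and the 10 cell types, 3.34% of tests were called. The dilated nuclei of dilator muscle had median UMIs per nucleus of 3660 and 3800 by library, within the 3344.5 to 3926 of the untreated libraries.

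In dilator muscle, *Gja1* was at 1082, 805 and 916 CPM in the untreated libraries, at 985, 971 and 952 CPM in the constricted libraries and at 441 and 350.3 CPM in the dilated libraries. Both dilated libraries lay below all others. The log2 fold change was -1.05 (SE 0.143, 95% interval -1.36 to -0.74), a 2.07-fold lower level, with an adjusted p of 0.000492 in edgeR's test. Among all genes tested in dilator muscle, 6.14% were called lower and 7.2% higher, and *Gja1* ranked 240th of 15395 by p-value and 474th of the 945 lower genes by fold change. Within each of the 2 series of library numbers that held both conditions, *Gja1* was 2.46-fold lower in CPM after dilation. It remained called when the nuclei with shared barcodes were left out (log2 fold change -1.04).

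The fall was seen in how many nuclei held *Gja1* and in how many UMIs they held. After thinning, 61.3%, 50.3% and 57.9% of dilator nuclei held a *Gja1* UMI in the untreated libraries, 58.7%, 60.4% and 58.5% in the constricted libraries, and 33.4% and 27.7% in the dilated libraries. Nuclei with *Gja1* held a mean of 1.64 to 1.81 UMIs of it in untreated irises, and of 1.38 and 1.33 in dilated irises. Those with 3 or more UMIs made up 7.63% to 12.8% of the untreated and 2.42% and 1.38% of the dilated nuclei. Neither measure overlapped between the 2 conditions. Both are read from the same counts, and a lower level in every nucleus would lower both. They therefore do not show whether fewer nuclei expressed *Gja1*.

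**Figure D2:**
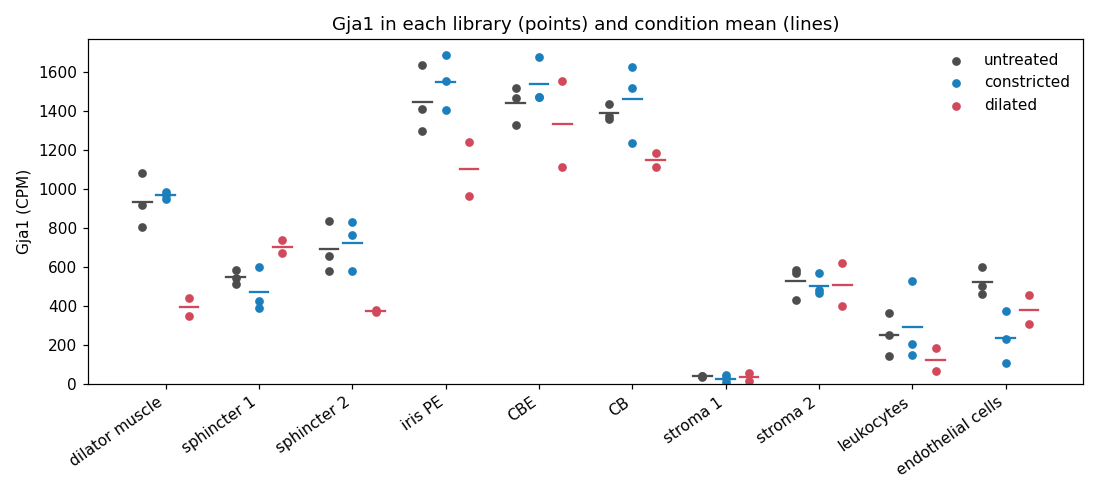
*Gja1* in CPM (y axis, from 0) in each cell type (x axis); points are the 3 untreated (grey), 3 constricted (blue) and 2 dilated (red) libraries, and lines the condition means. In dilator muscle the dilated libraries sit at 441 and 350.3 CPM, below the 805 to 1082 CPM of the untreated libraries, and in sphincter 1 they sit above them.

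**Figure D3:**
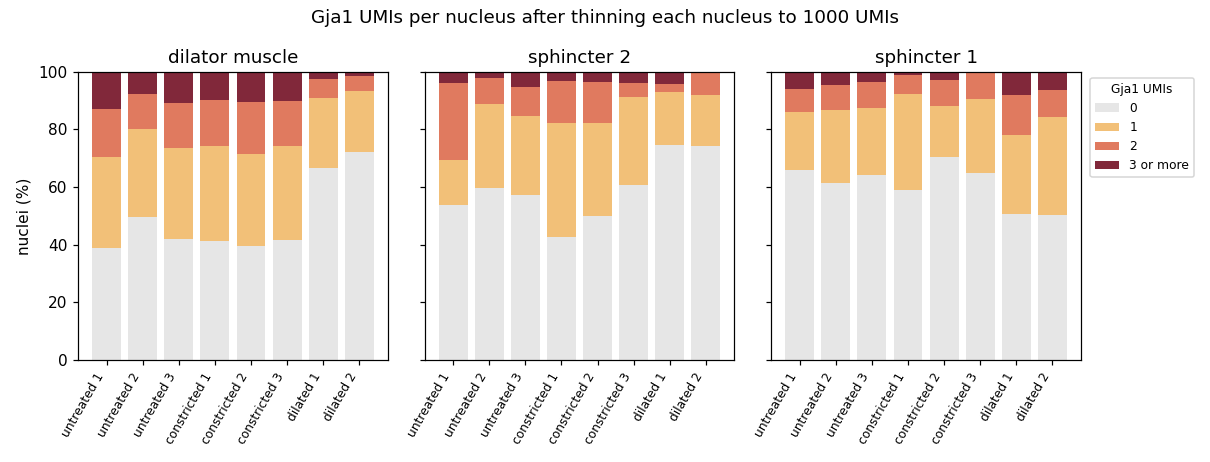
Percent of nuclei (y axis) with each number of *Gja1* UMIs after thinning to 1000 UMIs per nucleus, by library (x axis), in dilator muscle, sphincter 2 and sphincter 1. In dilator muscle, nuclei with 0 UMIs made up 66.6% and 72.3% of the dilated libraries, against at most 49.7% of any other library.

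Other marker lists moved in dilator muscle beside *Gja1*. The 4 dilator markers summed to 3177 to 3360 CPM in untreated and 1998 to 2450 CPM in dilated libraries. Of these, *Adra1a*, *Nos1* and *Myh11* were lower than untreated without overlap, and *Acta2* overlapped (438 to 954 CPM and 375 to 866 CPM). For *Adra1a*, the dilated libraries (243 to 344 CPM) overlapped with the constricted libraries (238 to 523 CPM). The study reported no change of *Adra1a* in dilator muscle with dilation by in situ hybridization. That is a signal in tissue sections and an unlike measure to nuclear CPM. The study's quantified signals in dilator muscle were divided by the *Adra1a* signal, so those ratios do not measure *Adra1a* itself. The 4 sphincter 2 markers, of which *Adra1a* and *Myh11* are on both lists, summed to 2253 to 2629 CPM and to 1544 to 1546 CPM. The 5 stroma 1 markers summed to 6067 to 6607 CPM and to 8246 to 8610 CPM, and of these *Dct* alone was higher in the dilated libraries (5031 to 5591 CPM untreated, 7463 to 7952 CPM dilated). *Mitf* was lower (1002 to 1086 CPM and 651 to 779.6 CPM), and *Pax3* overlapped. *Sox10* (3.52 to 4.36 CPM and 1.58 to 1.80 CPM) and *Tbx1* (1.74 to 8.10 CPM and 0.987 to 1.20 CPM) were lower as well. In constricted libraries *Sox10* (1.18 to 1.94 CPM) and *Tbx1* (0 to 0.968 CPM) were also below untreated, so this was not particular to dilation. The 5 pericyte markers summed to 29.4 to 36.5 CPM and 15.03 to 20.6 CPM. Of these, *Kcnj8* (2.49 to 3.48 CPM and 0.401 to 0.691 CPM) and *Abcc9* (5.61 to 8.30 CPM and 1.60 to 2.17 CPM) were lower. *Rgs5*, *Pdgfrb* and *Notch3* overlapped. In constricted libraries *Abcc9* was also below untreated, at 2.61 to 4.87 CPM, while *Kcnj8* overlapped with untreated, at 1.33 to 4.26 CPM. The 3 photoreceptor markers summed to 11.8 to 18.1 CPM and 7.01 to 10.7 CPM. The 3 iris PE markers overlapped, at 1418 to 1723 CPM and 1410 to 1555 CPM. No marker of these lists was at 0 in the untreated or the dilated libraries, and their part in the result was not tested.

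*Gjc1* in dilator muscle was at 18.1, 19.1 and 15.8 CPM in untreated, 19.2, 19.9 and 18.2 CPM in constricted and 25.0 and 24.4 CPM in dilated libraries. Both dilated libraries were above all others. The log2 fold change was 0.66 (SE 0.181, 95% interval 0.27 to 1.06), a 1.58-fold higher level, with an adjusted p of 0.0286 in edgeR's test. This call was close to both thresholds. It was lost with DESeq2 (adjusted p 0.0571), without a filter on low counts (0.0505) and whenever an untreated or a dilated library was left out (0.0504 to 0.165). It was also lost when total UMIs replaced the trimmed mean of M-values (TMM), which took the log2 fold change to 0.49 (adjusted p 0.0887). That scaling moved the median log2 fold change of all dilator genes from 0.02 to -0.16, and the share of calls that were higher from 54.0% to 32.4%, while *Gja1* stayed lower (-1.24). After thinning, the share of dilator nuclei with *Gjc1* was 1.61% to 2.13% in untreated and 2.42% and 2.76% in dilated libraries. Within the 2 series of library numbers, the dilated level was 1.38 and 1.40 times the untreated level.

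In sphincter 2, *Gja1* was at 834, 578.5 and 658 CPM in untreated, 831, 765 and 578.2 CPM in constricted and 367 and 382 CPM in dilated libraries. The dilated libraries were again below all others, with a log2 fold change of -0.77 (SE 0.222, 95% interval -1.22 to -0.31) and an adjusted p of 0.0535 that missed the threshold. It passed without nuclei that shared a barcode (adjusted p 0.044). It passed in 9 of 16 alternatives in all, with log2 fold changes between -0.88 and -0.66 over the 16. The 5 sphincter 1 markers in these nuclei summed to 2666 to 3328 CPM in untreated and 1826 to 2171 CPM in dilated libraries. Of these, *Syt1* alone was lower without overlap (1713 to 2412 CPM and 1346 to 1397 CPM), and *Chrm3*, *Ttn*, *Ctnna3* and *Rbfox3* overlapped. The 4 dilator markers summed to 4135 to 4586 CPM and to 4830 to 5488 CPM, also without overlap. In constricted libraries they summed to 5385 to 5752 CPM, so the higher level was not particular to dilation. The 5 stroma 1 markers summed to 1347 to 1904.1 CPM in untreated and to 1904.3 to 1959.5 CPM in dilated libraries. *Tbx1* of the last list was at 0 in the dilated libraries and no other marker of the 3 lists was at 0, and their part in the result was not tested. *Gjc1* in sphincter 2 was at 55.0, 54.1 and 46.0 CPM untreated and 81.5 and 81.8 CPM dilated. Its log2 fold change was 0.77, with an adjusted p of 0.299.

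In sphincter 1, *Gja1* was at 543, 584 and 515 CPM in untreated, 602, 387 and 428 CPM in constricted and 736 and 674 CPM in dilated libraries. The dilated libraries were here above all others, but the log2 fold change of 0.40 did not pass (95% interval -0.03 to 0.83, adjusted p 0.53). The 3 iris PE markers (*Zic1*, *Pax6*, *Otx1*) summed to 1269 to 1631 CPM in untreated and 2275 to 2364 CPM in dilated sphincter 1, and the CBE markers, *Zic1* and *Pax6* of the same list, to 1129 to 1430.3 CPM and 2121 to 2195 CPM. *Pax6* made up most of both sums (1118 to 1343 CPM untreated, 1992 to 2059 CPM dilated). *Zic1* was also higher (10.8 to 90.3 CPM and 129 to 136 CPM), and *Otx1* overlapped (140 to 201 CPM and 155 to 169 CPM). The 5 endothelial markers summed to 17.5 to 26.9 CPM and 38.2 to 48.5 CPM and the 5 pericyte markers to 10.8 to 25.5 CPM and 29.998 to 32.3 CPM. *Rgs5*, a defining pericyte marker, was at 0 in both conditions, and no other marker of these lists was. Their part in the result was not tested. *Gjc1* in sphincter 1 had a log2 fold change of 0.27 (adjusted p 0.873).

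In iris PE and in the ciliary body *Gja1* did not pass the test. In iris PE it was at 1638, 1298 and 1409 CPM in untreated and 1242 and 963 CPM in dilated libraries, without overlap, and the log2 fold change was -0.35 (95% interval -0.69 to -0.01, adjusted p 0.54). In CB the log2 fold change was -0.24 (95% interval -0.69 to 0.20) and in CBE -0.07 (-0.50 to 0.37), both with an adjusted p of 1.0. *Gjc1* in iris PE had 0.38 (adjusted p 0.857).

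In stroma 2, *Gja1* had a log2 fold change of -0.01 (95% interval -0.44 to 0.41), and *Gjc1*, at 44.7, 33.8 and 36.8 CPM untreated and 45.0 and 63.1 CPM dilated, one of 0.55 (adjusted p 0.349). In stroma 1, *Gjb6* was at 106, 155 and 147 CPM in untreated, 146, 134 and 114 CPM in constricted and 86.3 and 93.4 CPM in dilated libraries. The dilated libraries lay below the rest, but the log2 fold change of -0.62 (SE 0.208) did not pass (adjusted p 0.154). *Gjb2* in stroma 1 was at 86.3 and 48.4 CPM after dilation, overlapping with untreated libraries (log2 fold change -0.31, adjusted p 0.643). *Gjc3* was at 25.0 and 33.3 CPM, also overlapping (0.05, adjusted p 0.978), and *Gja1* had -0.19 (adjusted p 0.902). Leukocytes (-0.71, adjusted p 0.742) and endothelial cells (-0.45, adjusted p 0.925) gave wide intervals for *Gja1*. In dilator muscle, *Gja5* had 0.58 (adjusted p 0.65), *Panx1* 0.06 (adjusted p 0.929) and *Panx2* -0.30 (adjusted p 0.735).

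**Figure D4:**
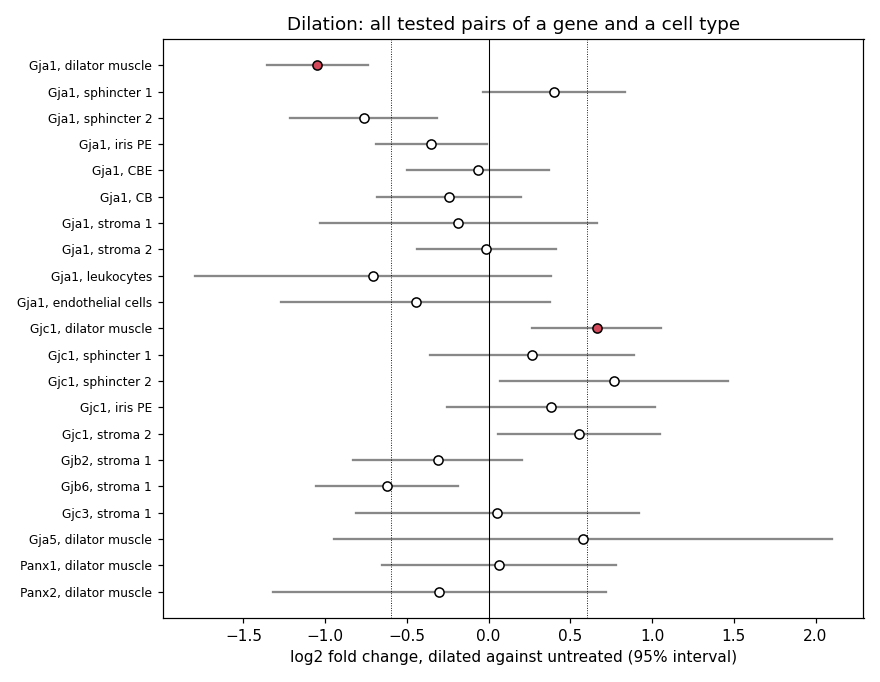
Log2 fold change of dilated against untreated libraries (x axis) with its 95% interval for the 21 tested pairs of a gene and a cell type (y axis); filled points passed both thresholds and dotted lines mark -0.6 and 0.6. The filled points are *Gja1* (-1.05) and *Gjc1* (0.66) in dilator muscle.

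Whether the *Gja1* change differed between dilator muscle and other cell types was tested in joint fits of dilator muscle with each of the 9 other types, with a term for each library. Of 36 tested pairs of a member and a cell type, 5 were called, all for *Gja1*, and 4.53% of such tests were called over all genes. The log2 fold change in dilator muscle was lower than that in sphincter 1 by a difference of -1.45 (95% interval -1.84 to -1.06, adjusted p 1.03e-08). It was lower than that in stroma 2 (-1.03, adjusted p 0.000797), CBE (-0.99, adjusted p 5.1e-05), CB (-0.84, adjusted p 0.00368) and iris PE (-0.72, adjusted p 1.45e-05). The difference from sphincter 2 was -0.31 (95% interval -0.67 to 0.05, adjusted p 0.587), and those from stroma 1 (-0.79, adjusted p 0.218), endothelial cells (-0.63, adjusted p 0.866) and leukocytes (-0.34, adjusted p 0.977) were not called either. Without dilated replicate 2, the CB difference was lost and the stroma 1 difference was called, and 5 differences were called without the nuclei that shared a barcode. For *Gjc1*, no difference between dilator muscle and the other cell types was called, with adjusted p from 0.518 in CBE to 1.0 in leukocytes.

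The second comparison asked which members changed with constriction, against the same untreated libraries. Of the same 21 tests, 0 were called by edgeR and 0 by DESeq2, with 2 at an unadjusted p under 0.05 in each, and 0.0118% of all tests over all genes were called. *Gja1* in dilator muscle had a log2 fold change of 0.08 (95% interval -0.19 to 0.35). *Gjb2* in stroma 1 was at 154, 111 and 137 CPM, above the 64.6, 98.8 and 84.4 CPM of the untreated libraries. Its log2 fold change was 0.67 (SE 0.207, unadjusted p 0.0042 from edgeR), with an adjusted p of 0.937. *Gja1* in endothelial cells was at 375, 107 and 230 CPM against 601, 462 and 500.3 CPM untreated, with a log2 fold change of -1.11 (adjusted p 0.262). Without the nuclei that shared a barcode, 0 were called as well.

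Proteins that anchor, deliver or modify gap junctions were read from a list of 22 genes, of which 21 were measured and 19 tested in dilator muscle. After dilation, 2 were called lower and 3 higher there, and the median log2 fold change of the 19 was 0.21 against 0.02 for all genes. In dilator muscle 13.3% of all genes were called in either direction. *Cnst* (consortin, which binds connexins on the way to the membrane) was at 33.0, 39.8 and 38.8 CPM untreated and 19.2 and 19.0 CPM dilated (log2 fold change -0.80, adjusted p 0.01). *Cdh2* (N-cadherin) was at 151, 123 and 132 CPM and fell to 77.1 and 70.3 CPM (-0.68, adjusted p 0.0138). Both lay without overlap below the untreated libraries.

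*Prkca*, protein kinase C alpha, which phosphorylates Cx43, rose from 107, 96.5 and 84.8 CPM to 192 and 155 CPM (1.05, adjusted p 0.000322). *Akt1*, another Cx43 kinase, rose from 28.7, 27.7 and 30.4 CPM to 47.6 and 36.3 CPM (0.71, adjusted p 0.0145). *Tjp1*, the scaffold best known for binding Cx43, had -0.11, and *Ctnnb1* (beta-catenin) 0.21, neither called. *Prkca* was also called higher in iris PE and in stroma 2, and no other gene of the list was called in any other cell type. *Prkca* was called in all 16 alternatives, and *Cnst*, *Cdh2* and *Akt1* in 13. *Cnst* was lost without dilated replicate 1 or untreated replicate 2 or 3, *Cdh2* without either dilated library or untreated replicate 3, and *Akt1* with total UMIs in place of TMM and without dilated replicate 1 or untreated replicate 2.

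A list of 31 other large-pore channels and genes of extracellular ATP signalling, the receptors and enzymes that meet ATP once it has left the cell, held 25 measured genes. Of 16 tested in dilator muscle, 1 was called lower and 3 higher, beside 13.3% of all genes there called in either direction. The median log2 fold change of the 16 was 0.23, against 0.02 for all genes. *P2rx7*, an ATP-gated channel that opens a large pore, was at 19.3, 25.1 and 19.8 CPM untreated and rose to 68.1 and 56.3 CPM (1.69, adjusted p 8.83e-05). *P2rx4*, another ATP-gated channel, rose from 95.4, 86.0 and 80.8 CPM to 172 and 134 CPM (1.00, adjusted p 0.000949). *P2rx6*, a subunit of the same family, fell from 58.0, 64.3 and 52.7 CPM to 23.1 and 17.4 CPM (-1.34, adjusted p 0.00115). These 3 were called in all 16 alternatives.

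*P2ry14*, a receptor for UDP-glucose, rose from 40.5, 55.3 and 59.3 CPM to 78.6 and 70.5 CPM (0.68, adjusted p 0.0229). It was called in 11 of 16 alternatives and was lost with total UMIs in place of TMM and without untreated replicate 1 or 2 or either dilated library. *Med12l* overlaps *P2ry14*, *Slc7a4* overlaps *P2rx6*, and other annotated genes overlap *Prkca*, *Cdh2*, *Akt1* and *P2rx7*, so reads of these can be shared unless strand was used. In other cell types *P2rx6* was called lower in sphincter 2, *Entpd3*, an enzyme that degrades extracellular nucleotides, lower in sphincter 1, and *Lrrc8d*, a volume-regulated anion channel subunit, higher in leukocytes.

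**Figure D5:**
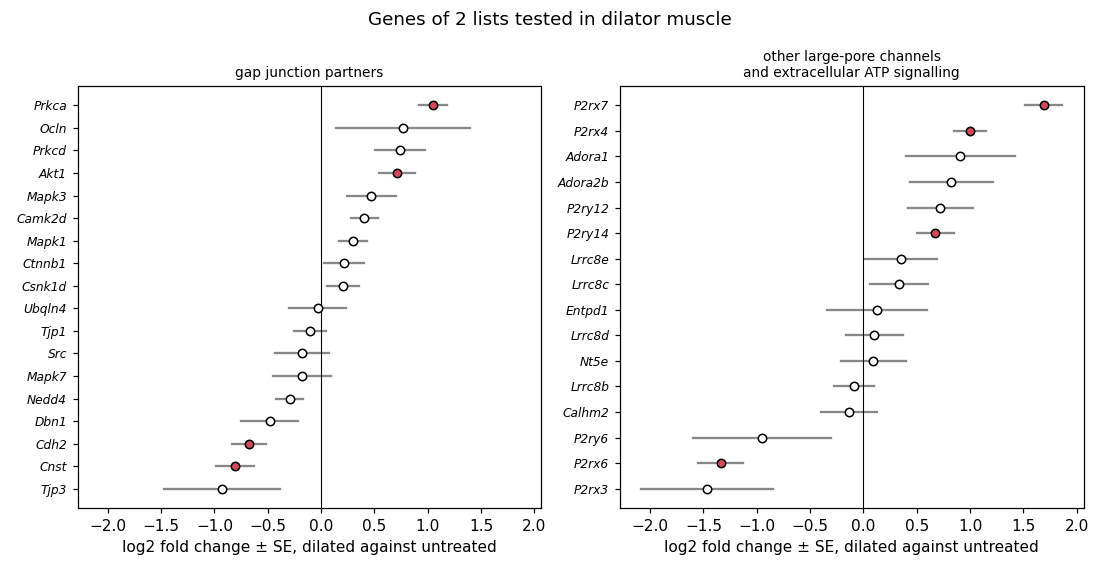
Log2 fold change ± SE of dilated against untreated libraries in dilator muscle (x axes) for tested gap junction partners and the 16 tested genes of other large-pore channels and extracellular ATP signalling (y axes). Filled points passed both thresholds; *P2rx7* (1.69) and *P2rx6* (-1.34) are the furthest of these on either side.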

How the data were processed

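The authors dissected irises, isolated nuclei and made libraries with the 10x Genomics 3' v3 kit. Reads were aligned to an mm10 pre-mRNA index with Cell Ranger 3.1.0. Nuclei with over 1% mitochondrial transcripts, or with what the study calls under 500 or over 6000 transcripts, had been removed by the authors. The study's mean transcripts per nucleus lie near the median genes here, not the median UMIs (1913 and 3534 in untreated replicate 1). The limits of 500 and 6000 are therefore read as numbers of genes detected. The deposited counts are whole numbers of UMIs per gene and nucleus, without normalization, and the deposited percent of mitochondrial transcripts and cell type of each nucleus came with them. Here UMIs were added up over the nuclei of a cell type within each library. Libraries were grouped by the labels, and each came from its own pool of irises.

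Differences were tested with edgeR 4.0.16 in R 4.3.3 (TMM, filterByExpr, quasi-likelihood test, two-sided, all 8 libraries in 1 fit per cell type, Benjamini-Hochberg over the genes tested), with the study's thresholds of 0.6 and 0.05. The study tested nuclei with a t-test, which was not repeated since nuclei of a library are not independent. The steps were tested on simulated data. Standard errors and intervals (95%) came from the fitted F values. Differences of the dilation effect were fitted jointly, with a term per library. Alternatives were DESeq2 1.42.0, other filters, a replicate block, the library number series as a term and each library left out. Nuclei called doublets by Scrublet (scanpy 1.11.5) were also left out, 359 nuclei or 1.04%. The share was uneven, at 7.52% in sphincter 1, 7.49% in leukocytes, 7.33% in endothelial cells and 3.63% in CBE, against 0.646% in dilator muscle. Thinning drew 1000 UMIs per nucleus and left out shallower nuclei.

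The study used 5 batches and 2 sequencing runs, and the labels and text do not tie libraries to them. The library numbers fall into series (2 to 4, 13, and 15 to 18). Gene positions are from GENCODE vM21. The members and the gene lists were chosen with earlier results of these data known. Genes named are the members, for each member with at least 20 CPM in a cell type the 3 genes most like it by Pearson's r, and list genes that passed in dilator muscle. *Gjb1*, *Gja3*, *Tjp1*, *Ctnnb1*, *Entpd3* and *Lrrc8d* are named beyond this rule, chosen once their values had been seen. Of the gap junction partners *Ccn3*, and of the ATP list *Calhm5*, *Calhm6*, *P2rx2*, *P2ry4*, *Adora3* and *Entpd2*, were not analysed here. Some genes of the lists that the counts include are not reported here.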

Additional observations from a re-analysis of the deposited data

Results flagged for a closer look

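The dilation effect on *Gja1* in dilator muscle differed from that in 5 other cell types, by the test of the difference itself. The difference in log2 fold change, dilator muscle minus the other type, was -1.45 for sphincter 1, -1.03 for stroma 2, -0.99 for CBE, -0.84 for CB and -0.72 for iris PE. In sphincter 1 the dilated libraries lay above the untreated libraries, and in dilator muscle below them. Called doublets made up 7.52% of sphincter 1 nuclei, and without them the sphincter 1 difference was -1.565. Groups of 2 or 3 libraries were too small for a test of single outlying libraries.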

How the results depend on the processing

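Among pairs of a member and a cell type, 2 changes were called with dilation, and the fall of *Gja1* in dilator muscle was called in all 16 alternatives, with log2 fold changes from -1.24 to -0.96. DESeq2 called 1 change in place of 2. Leaving out single libraries gave 1 to 3 calls. The call for *Gjc1* in dilator muscle held in 8 of the 16 alternatives. With the replicate number as a block, 3 pairs of a member and a cell type were called with dilation, the third being *Gja1* in sphincter 2 (adjusted p 0.0277 from edgeR), and 0 with constriction. The library number series as a term gave the same 3 calls with dilation and 0 with constriction. In that fit the adjusted p from edgeR was 0.00587 for *Gja1* in sphincter 2 and 0.00963 for *Gjc1* in dilator muscle. Replicate numbers did not mark pairs throughout. This was read from correlations over genes of the deviations of dilator sums from their condition, not of the sums themselves. Between same-numbered libraries they ranged from -0.0286 to 0.47. Not every library had a deviation that correlated above 0.1 with its own number. Deviations from the same series of library numbers correlated at 0.173 to 0.47, and those from different series at -0.47 to 0.0911. The 2 dilated libraries deviate in opposite directions by construction, so a value for 1 of them returns with its sign turned for the other. Constricted replicate 1 had 0.47 with dilated replicate 1 and -0.47 with dilated replicate 2. The negative end of the second range is thus set by the centring and is no evidence on the series. Leaving out nuclei with shared barcodes and using total UMIs in place of TMM were alternatives chosen after seeing the data. Signs turned for changes that were not called. *Gja1* had 0.13 in CBE, 0.37 in stroma 1 and 0.23 in stroma 2 without dilated replicate 2. In stroma 2 it also had 0.03 and 0.05 without untreated replicates 1 and 3, and 0.022 without shared barcodes. In endothelial cells it had 0.0057 without called doublets. *Gjc3* in stroma 1 had -0.08, -0.20 and -0.22 without untreated replicate 1, dilated replicate 2 and untreated replicate 3. The difference between dilator muscle and stroma 1 was 0.19 without dilated replicate 1, and that between dilator muscle and leukocytes was 0.17 without called doublets and 0.58 without dilated replicate 1. Over all single libraries left out, the lowest or highest values on the other side were -0.27 for *Gja1* in CBE, -1.36 in stroma 1 and -0.31 in stroma 2, 0.64 for *Gjc3* in stroma 1, and -1.28 and -0.77 for the differences from stroma 1 and leukocytes. The cause was not tested. Where a left-out library leaves 1 dilated library, that library is assumed to vary like the others. Few UMIs limit *Gja4*, *Gja5*, *Panx1*, *Panx2* and the members in leukocytes and endothelial cells.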
